A study of Rattus norvegicus with 6 samples.

Results

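Plau, Plaur, Plat, Serpine2 and Serpinb2 are genes of the plasminogen activator system. Their messenger RNA was measured in 6 PAIII tumors of the rat, which the authors describe as primary tumors grown under the skin. These 5 symbols were chosen by name, and each was found on 1 of the 17557 rows of the deposited table. PAIII is a hormone-resistant line derived from a prostate tumor of a Lobund-Wistar rat, and its cells had been injected into the flank of 2-month-old rats of the same strain. Rats A1, A6 and A12 received digitoxin, a cardiac glycoside that inhibits the Na,K-ATPase, at 0.03 mg/kg by daily intraperitoneal injection from day 10, and rats B5, B9 and B14 received the vehicle. Tumors were collected on day 40, and 1 library was made per rat from micropunches of viable tumor regions, so n = 3 in each group. The digitoxin rats were taken from the low extreme and the vehicle rats from the high extreme of serum IL-6 and CINC-1, so treatment and this selection cannot be told apart. The PAIII cells are a single serially passaged line, and no gene was targeted that could check the labels, so directions hold for the libraries as labelled.

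Plasminogen activators are serine proteases that cut plasminogen, a protein made mainly by the liver, into plasmin, which dissolves fibrin and degrades matrix proteins. Urokinase, encoded by Plau, works on cell surfaces where it is held by its GPI-anchored receptor, encoded by Plaur, while tissue-type activator, encoded by Plat, is made by endothelium among other cells and works mainly on fibrin. Serpins are inhibitors that trap such proteases in a stable complex. Serpine2 encodes protease nexin-1, an inhibitor of thrombin and of both activators, and Serpinb2 encodes plasminogen activator inhibitor type 2, which is largely kept inside the cell and is known to be induced in stimulated macrophages and in epithelia.

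The stretches of 250 bases before the annotated start are shown for the 4 members that RefSeq's table of promoters (assembly GRCr8) held, since it is these members' RNA levels that are set side by side further on. Capitals mark matches on either strand to 3 motifs: the AP-1 motif TGANTCA, the kappaB motif GGGNNTTCC or GGNNTTTCC, and the GC box GGGCGG.
Plau, chr15:3511988-3512237, minus strand: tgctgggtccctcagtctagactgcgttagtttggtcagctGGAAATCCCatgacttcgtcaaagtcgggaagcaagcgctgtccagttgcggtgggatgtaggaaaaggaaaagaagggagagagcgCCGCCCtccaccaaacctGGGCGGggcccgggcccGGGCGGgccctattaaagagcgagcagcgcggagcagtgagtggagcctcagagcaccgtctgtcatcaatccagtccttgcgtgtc
Plaur, chr1:89181113-89181362, plus strand: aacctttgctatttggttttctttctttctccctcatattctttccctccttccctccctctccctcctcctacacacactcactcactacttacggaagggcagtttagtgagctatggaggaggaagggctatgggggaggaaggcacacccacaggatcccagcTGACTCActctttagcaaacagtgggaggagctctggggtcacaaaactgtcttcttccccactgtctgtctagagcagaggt
Serpine2, chr9:88637203-88637452, minus strand: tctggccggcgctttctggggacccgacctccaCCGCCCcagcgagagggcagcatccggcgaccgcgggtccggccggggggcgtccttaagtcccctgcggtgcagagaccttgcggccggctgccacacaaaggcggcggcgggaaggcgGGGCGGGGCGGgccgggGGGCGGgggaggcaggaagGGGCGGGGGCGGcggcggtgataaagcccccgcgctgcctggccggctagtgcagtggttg
Serpinb2, chr13:24055771-24056020, plus strand: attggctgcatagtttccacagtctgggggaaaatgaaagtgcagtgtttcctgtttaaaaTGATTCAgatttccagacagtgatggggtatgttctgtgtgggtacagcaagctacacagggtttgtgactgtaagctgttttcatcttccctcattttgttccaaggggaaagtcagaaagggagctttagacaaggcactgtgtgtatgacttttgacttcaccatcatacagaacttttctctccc
The Plau window held 1 kappaB match, GGAAATCCC, whose first base is at position -209 from the annotated start, and 3 GC boxes. Plaur and Serpinb2 each held 1 AP-1 match, TGACTCA at position -83 and TGATTCA at position -189, and neither held a GC box. The Serpine2 window held 6 GC boxes and no match to the other motifs. Among 33469 rat promoter windows of the same length, 6.34% held the AP-1 motif, 8.64% a kappaB motif and 30.5% a GC box. A match is a run of letters, and the data hold no measurement of binding. Plat is named only.

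Levels are given as FPKM, the fragments counted on a gene for each kilobase of its transcript after scaling to the size of the library, a measure per length that allows levels of different genes to be compared. The tumors differed in what tissue they held. The summed level of 10 lung alveolar markers was between 27332 and 83537 FPKM in A1, A6, B5 and B9, against 18.9 in A12 and 27.0 in B14, where the surfactant genes Sftpc and Sftpb were at or near 0. The authors describe the tumors as primary ones of the flank, a site that holds no lung tissue. Where the lung RNA of A1, A6, B5 and B9 came from was not tested. Dividing-cell markers, 8 genes, summed to 275 FPKM in A1, 42.9 in A6 and 567 in A12, and to 398, 412 and 502 in B5, B9 and B14. Of the prostate and epithelial list of 8 genes, Pbsn and Hoxb13, which mark prostate tissue, were at or below 0.0937 FPKM in all 6 tumors, while the epithelial genes Krt8, Krt18 and Epcam were at 106 FPKM or more in each. The basal keratins of the list were low, Krt5 at 0.939 FPKM or less and Krt14 between 4.96 and 27.4.

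Urokinase, its receptor and both serpins shared their highest and lowest tumors, and Plat did not. Each of the former 4 genes was highest in A12 and B14 and lowest in A6, 1 digitoxin tumor being among the highest and another the lowest. Across the 10749 rows tested, whose mean reached 1 FPKM, 27.3% had the same highest and lowest tumors, 30.1% had A12 and B14 as the highest and 50.4% had A6 as the lowest. No member differed between digitoxin and vehicle with an adjusted p under 0.05, and 0% of all rows did (limma, Benjamini-Hochberg). At an unadjusted p under 0.05 the members also numbered 0, against 0.335% of all rows, and 0 of 5 had groups that did not overlap, against 4.16% of all rows. With tumors paired by replicate number as a block, 1 member, Serpinb2, had an unadjusted p under 0.05 (0.0370, limma adjusted p = 0.638), as did 446 of all rows against 36 without the block. Within the 3 same-numbered pairs, Plau, Plaur and Serpinb2 were lower with digitoxin in 3 of 3, as were 22.4% of all rows, while Serpine2 was lower in 2 and Plat in 1. An exact sign-flip permutation test over 3 pairs cannot go below 0.25. The labels give no shared day or batch for these pairs.

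**Figure D1:**
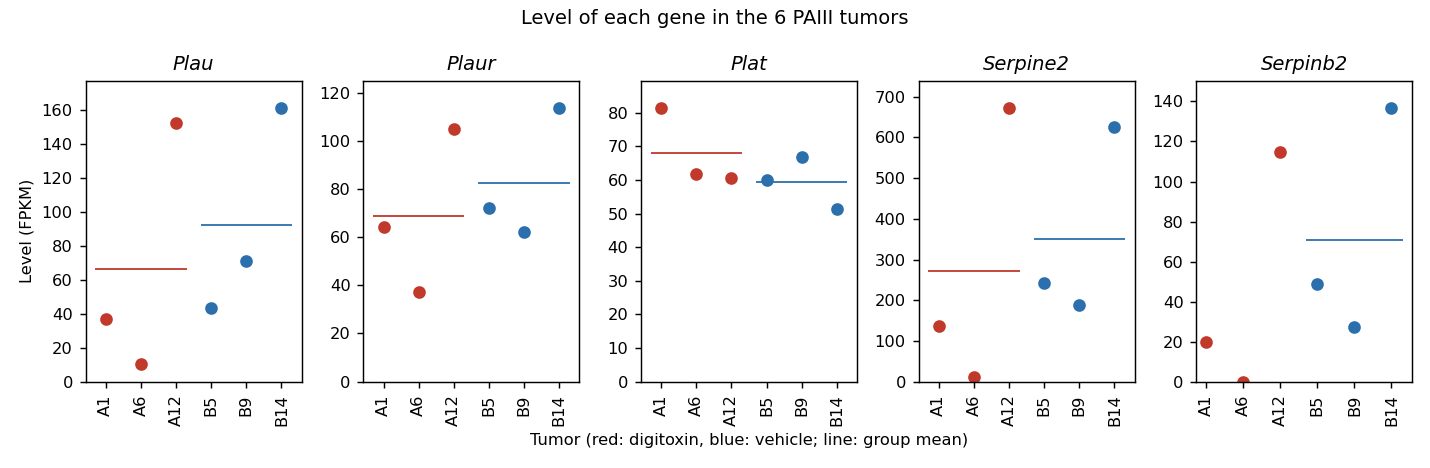
Level of each member (FPKM, linear axis from 0) in the 6 tumors, with a point per tumor and a line at the group mean, left out for Serpinb2 with digitoxin because A6 is listed at 0. A12 and B14 are the highest for every gene except Plat, which stays between 51.3 and 81.3 FPKM.

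Plau (chr15:3621056-3627467 as deposited, in a rat build that the sources used here do not name) was at 36.8 FPKM in A1, 10.4 in A6 and 152 in A12 with digitoxin, and at 43.7, 71.4 and 161 in the vehicle tumors B5, B9 and B14. The urokinase RNA of the lower of A12 and B14 was 2.13 times that of the highest of the other 4 tumors, and the groups overlapped. The means were 66.5 ± 75.5 FPKM (SD, n = 3) with digitoxin and 92.0 ± 61.3 (n = 3) with vehicle. On log2(FPKM + 1), the scale of all fold changes here, the difference was -0.99 (SE 0.98, 95% interval -3.38 to 1.39, limma adjusted p = 0.926). Its standard error was about as large as the difference. The exact permutation test on the 3 against 3 tumors, two-sided and unable to go below 0.1, gave p = 0.5, or 0.6 when adjusted over the 5 members.

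Plaur, the urokinase receptor (chr1:82587241-82602923), had a narrower range, from 37.2 FPKM in A6 to 113 in B14. It was at 64.1 in A1 and 105 in A12, and at 72.2 in B5 and 62.3 in B9. The receptor thus spanned 3.05-fold over the 6 tumors where urokinase spanned 15.5-fold. The means were 68.7 ± 34.0 FPKM with digitoxin and 82.6 ± 27.1 with vehicle (SD, n = 3 each), a log2 fold change of -0.34 (SE 0.43, 95% interval -1.38 to 0.71, limma adjusted p = 0.926).

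Plat, the tissue-type activator (chr16:73730260-73754851), was the even member. Its level was 81.3 FPKM in A1, 61.9 in A6 and 60.7 in A12 with digitoxin, and 59.9, 66.8 and 51.3 in the vehicle tumors B5, B9 and B14. The highest tumor was thus 1.59 times the lowest, and A12 and B14, which led for the other members, were not the highest here. The means were 68.0 ± 11.6 and 59.3 ± 7.76 FPKM (SD, n = 3 each), and the log2 fold change was 0.19 (SE 0.22, limma adjusted p = 0.926). Its 95% interval, -0.35 to 0.72, was the narrowest of the 5 and still spans a fall and a rise. The endothelial list of 10 markers, a known source of this activator, summed to 860, 1631 and 178 FPKM in A1, A6 and A12 and to 429, 694 and 199 in B5, B9 and B14, a wider range than that of Plat. Cldn5 alone was at 767 FPKM in A6, while Flt1 of the same list went the other way, at 1.41 in A6 and 60.0 in A12.

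Serpine2, the protease nexin (chr9:85312140-85375551), was the most abundant member in 5 of the 6 tumors. It was at 136 FPKM in A1, 10.4 in A6 and 671 in A12 with digitoxin, and at 242, 188 and 625 in the vehicle tumors B5, B9 and B14. A6 stood 64.8-fold below A12, which carried the same treatment. The means were 273 ± 351 and 351 ± 238 FPKM (SD, n = 3 each). The log2 fold change of -1.59 (SE 1.44, 95% interval -5.09 to 1.90, limma adjusted p = 0.926) was close to its standard error.

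Serpinb2, the inhibitor of type 2 (chr13:32603845-32612855), was listed at 0 in A6. It was at 19.8 FPKM in A1 and 115 in A12, and at 48.9 in B5, 27.5 in B9 and 137 in B14. A 0 in this table can be a failed estimate, since Col1a2, a collagen gene that fibroblasts use, is listed at 0 in all 6 tumors. The log2 fold change was -2.12 (SE 1.70, 95% interval -6.23 to 1.999, limma adjusted p = 0.926), and with a pseudocount of 0.1 in place of 1 it was -3.22, so its size depends on the listed 0.

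The 2 tumors with little lung RNA, A12 with digitoxin and B14 with vehicle, had similar levels of all members. The ratio of A12 to B14 was 0.946 for Plau, 0.923 for Plaur, 1.18 for Plat, 1.07 for Serpine2 and 0.841 for Serpinb2. With 1 tumor on each side this pair has no replicate check. Among the other 4 tumors, Plau, Serpine2 and Serpinb2 were lower in both digitoxin tumors than in both vehicle tumors, while Plaur and Plat overlapped. Over all rows tested, 40% were lower in both digitoxin tumors in this way, so 3 of 5 members is to be read against that share. The log2 fold changes over these 2 against 2 tumors were -1.45 for Plau, -2.44 for Serpine2, -3.05 for Serpinb2, -0.45 for Plaur and 0.16 for Plat, with adjusted p of at least 0.392 in limma. In these 4 tumors the lung markers summed to 50847 and 83537 FPKM with digitoxin and to 27332 and 35749 with vehicle, and the summed dividing-cell markers, 42.9 FPKM, were lowest in A6. The summed prostate and epithelial list, with Krt8 its most abundant gene, was at 1674 and 817 FPKM in A1 and A6 and at 2411 and 1659 in B5 and B9. With the lung level as a covariate over all 6 tumors, the log2 fold changes were -0.89 (SE 0.51) for Plau, -0.29 (SE 0.24) for Plaur, 0.18 (SE 0.19) for Plat, -1.46 (SE 0.92) for Serpine2 and -1.96 (SE 1.105) for Serpinb2, with limma adjusted p of at least 0.620. The part of the dividing-cell and epithelial markers in the levels was not tested, and in bulk tissue fewer cells of a type and less RNA per cell cannot be told apart.

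**Figure D2:**
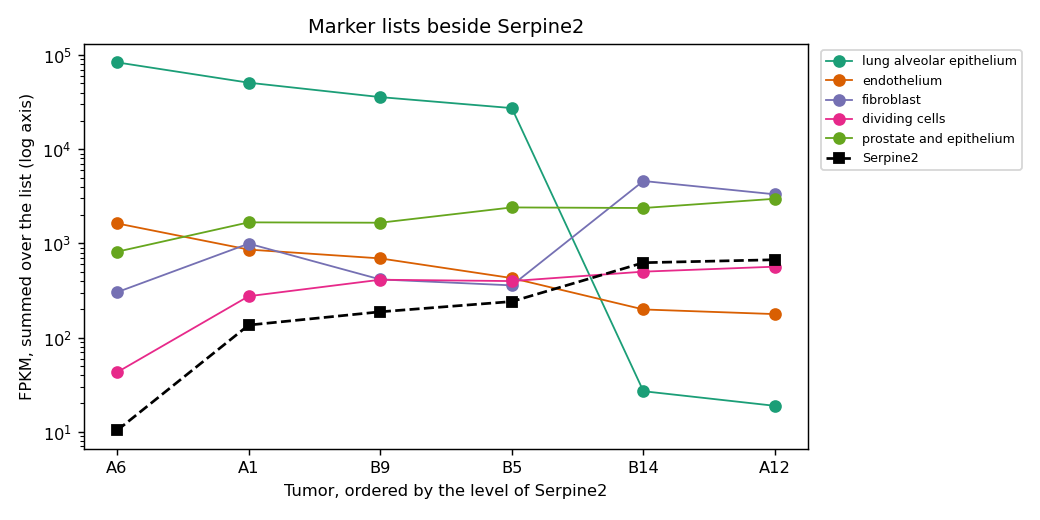
Summed FPKM (log axis) of 5 marker lists and of Serpine2 itself in the 6 tumors, ordered by the level of Serpine2. Lung alveolar markers fall from 83537 FPKM in A6 to 18.9 in A12 while Serpine2 runs from 10.4 to 671.

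Other cells are known to make these proteins as well. Macrophages make Plaur and Serpinb2, and the summed level of 10 macrophage markers was 39623, 39817 and 1687 FPKM in A1, A6 and A12 and 28399, 26127 and 3177 in B5, B9 and B14. Most of that sum was Lyz2, a lysozyme gene, at 38730, 39245 and 887 FPKM with digitoxin and 27464, 25503 and 1791 with vehicle. The complement gene C1qa of the same list went the other way, at 181, 72.3 and 275 FPKM with digitoxin and 236, 128 and 435 with vehicle, as did C1qb, C1qc and Cd163 in being lowest in A6 and highest in B14. Fibroblasts make Plau and Serpine2, and the sum of their 9 markers was at 995, 304 and 3321 FPKM with digitoxin and 359, 415 and 4601 with vehicle. Col1a1, Col3a1, Postn and Dcn made up most of that sum in A12 and B14, while Pdgfra of the same list was highest in A6, at 10.8 FPKM. Neutrophil markers, 8 genes, summed to 24235, 62596 and 1363 FPKM in A1, A6 and A12 and to 32891, 11117 and 3436 in B5, B9 and B14. The part of these cells in the levels of the members was not tested.

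Which tumors were in the fit decided the size of the differences. Without A6 the log2 fold changes were -0.08 for Plau, 0.04 for Plaur, 0.25 for Plat, -0.01 for Serpine2 and -0.24 for Serpinb2. Without A12 they were -1.96, -0.70, 0.26, -2.96 and -3.67 in the same order, and the unadjusted limma p was 0.0333 for Plau, 0.0353 for Serpine2 and 0.0339 for Serpinb2, with adjusted p of 0.252 for each. Without B14, Plau was at -0.49, Plaur at -0.09, Plat at 0.09 and Serpine2 at -1.08. Without A1 and B9, 2 tumors that earlier results of these data had singled out, the log2 fold changes of Plau, Plaur, Plat, Serpine2 and Serpinb2 were -1.02, -0.53, 0.14, -2.16 and -2.94. No tumor left out gave an adjusted p under 0.05 for a member.

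**Figure D3:**
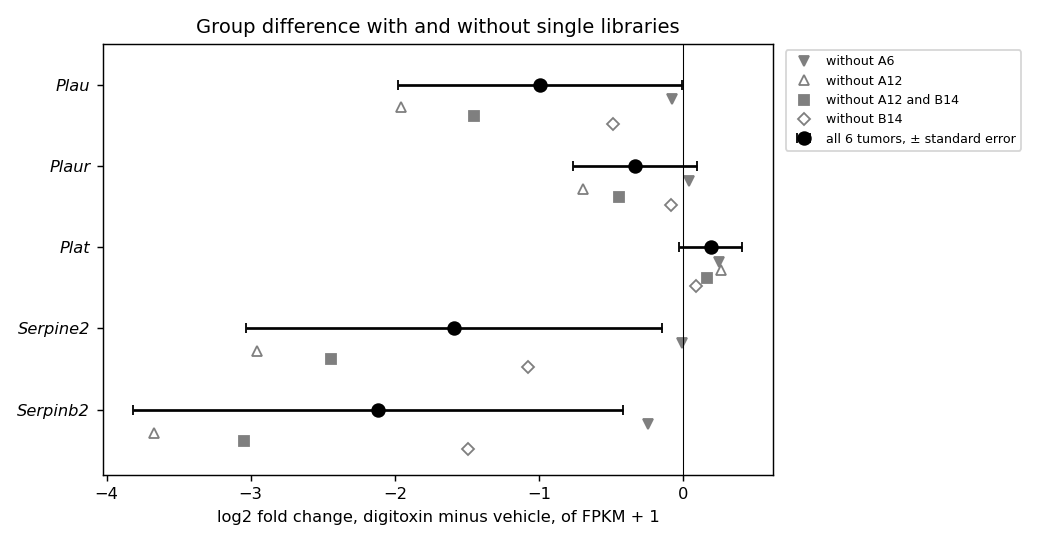
Log2 fold change of FPKM + 1, digitoxin minus vehicle, of each member in all 6 tumors (black, with 1 standard error on each side) and with tumors left out (grey). Without A6 the values of Plau, Plaur, Serpine2 and Serpinb2 lie between -0.24 and 0.04, and without A12 they lie furthest from 0.

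Spread between tumors, group aside, was large for urokinase and the serpins. The SD of log2(FPKM + 1) over the 6 tumors was 2.59 for Serpinb2, 2.15 for Serpine2 and 1.43 for Plau, against a median of 0.508 over all rows tested. The SD of Serpinb2 rests in part on its listed 0 in A6 and on the pseudocount. At least 93.1% of rows had an SD no larger than that of each of these 3 genes. Plaur, with an SD of 0.57, and Plat, with 0.22, lay at 56.1% and 12.04% on the same count.

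Ratios within a tumor do not depend on how libraries are scaled. Urokinase RNA relative to that of the tissue-type activator, Plau to Plat, came to 0.453, 0.168 and 2.51 in A1, A6 and A12, and to 0.729, 1.07 and 3.14 in B5, B9 and B14. Plau was thus the less abundant activator in 3 tumors and the more abundant in the other 3, in both groups. The difference in mean log2 ratio, digitoxin minus vehicle, was -1.23 (exact permutation p = 0.4, adjusted p = 0.6 over 3 ratios), and it was -0.34 without A6, -0.62 without B14 and -2.29 without A12. The ratio was lower with digitoxin in 3 of 3 same-numbered pairs, where the exact sign-flip permutation test gave p = 0.25, the smallest it can give.

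The receptor relative to urokinase, Plaur to Plau, came to 1.74 in A1, 3.57 in A6 and 0.687 in A12, and 1.65 in B5, 0.873 in B9 and 0.705 in B14. It was highest in A6, and the difference of 0.69 on the log2 scale gave an exact permutation p of 0.5 (adjusted 0.6), and was 0.12 without A6 and 1.31 without A12. Urokinase relative to the nexin, Plau to Serpine2, was 0.271, 1.005 and 0.227 in A1, A6 and A12 and 0.181, 0.380 and 0.258 in B5, B9 and B14. Serpine2 RNA thus exceeded that of Plau in every tumor but A6, where the values were nearly equal, and the groups differed by 0.60 (exact permutation p = 0.6, adjusted p = 0.6). The group difference was -0.0713 without A6 and 1.002 without A12.

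**Figure D4:**
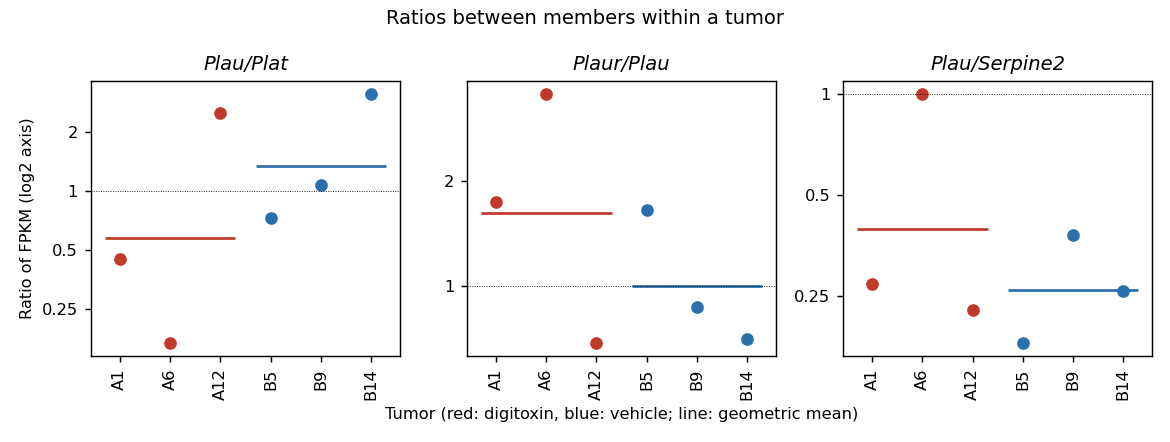
Ratios of FPKM between members within each tumor (log2 axis), with a point per tumor and a line at the geometric mean of each group. Plau to Plat is above 1 in A12, B9 and B14, and Plaur to Plau is highest in A6, at 3.57.

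The wider plasminogen system held 37 listed genes, of which 35 were in the table and 24 had a mean of at least 1 FPKM. Of these 24, 7 were higher and 17 lower with digitoxin, none had an unadjusted limma p under 0.05, and the median log2 fold change was -0.25, against -0.16 over all rows, of which 3776 were higher and 6973 lower. In 9 of the 24, A12 and B14 were the highest tumors and A6 the lowest, against 27.3% of all rows. Itgav and Fpr2 were not analysed here.

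Plg, plasminogen itself, lay between 0.0305 and 0.231 FPKM, so the substrate's RNA was near 0 in each tumor. Anxa2, annexin A2, which with its partner S100a10 binds plasminogen and the tissue-type activator at the cell surface, was at 1928, 779 and 4049 FPKM in A1, A6 and A12 and at 2817, 2210 and 3630 in B5, B9 and B14. S100a10 was at 1917, 1212 and 3541 FPKM with digitoxin and 3450, 1818 and 2924 with vehicle. Both were lowest in A6, and their log2 fold changes were -0.63 and -0.39 (limma adjusted p = 0.926 for each). Without A6 they were -0.0169 and -0.0175, and without A12 they were -1.21 and -0.79. Lrp1, the receptor that clears complexes of activator and inhibitor, was even, between 15.2 and 25.8 FPKM, with a log2 fold change of -0.06 that was 0.13 after scaling by median of ratios.

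A few more genes of the list, named after their values were seen, show how far the system varied. F3, tissue factor, which starts coagulation, was at 229, 80.7 and 777 FPKM in A1, A6 and A12 and at 529, 366 and 626 in B5, B9 and B14. F2rl1, a receptor that proteases cleave, was at 56.6, 5.14 and 175 FPKM with digitoxin and 103, 93.3 and 177 with vehicle. Both genes were highest in A12 and B14 and lowest in A6. Thbd, thrombomodulin, an anticoagulant receptor of endothelium, ran the other way, at 159 and 191 FPKM in A1 and A6 and 67.0 and 100 in B5 and B9, against 3.18 in A12 and 5.59 in B14.

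**Figure D5:**
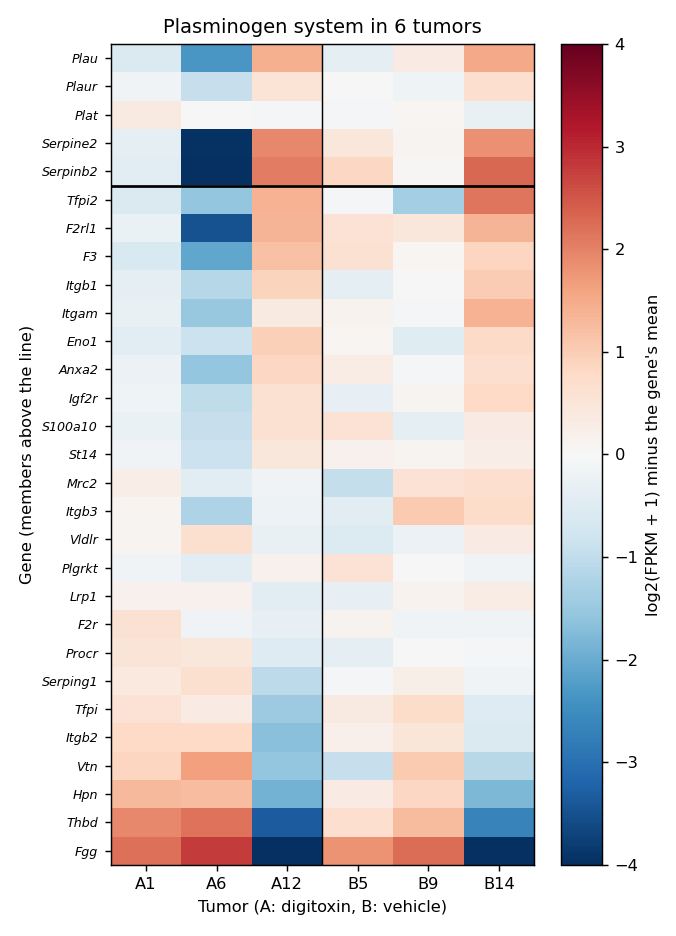
Log2(FPKM + 1) minus each gene's mean over the 6 tumors (colour, cut at -4 and 4) for the 5 members, above the line, and the 24 tested genes of the plasminogen system, ordered by their values in A12 and B14. Plau, Serpine2, Serpinb2, F2rl1 and F3 are high in A12 and B14 and low in A6. Thbd and Fgg, both named after their values were seen, show the reverse.

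Beyond the system, the matrix metalloproteinases and their TIMP inhibitors, some of which plasmin is known to activate, were the nearest group by function. Of 13 genes tested, 3 were higher and 10 lower, none had an unadjusted limma p under 0.05, and the median log2 fold change was -0.73, beside 3776 higher, 6973 lower and a median of -0.16 over all rows. In 7 of the 13, A12 and B14 were the highest tumors, against 30.1% of all rows. Mmp3, stromelysin 1, named after its values were seen, was at 14.3, 0.0852 and 371 FPKM in A1, A6 and A12 and at 23.6, 14.2 and 377 in B5, B9 and B14. The median of the 13 was 0.0091 without B14 and -0.0195 without A6.

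The rows whose pattern over the 6 tumors was closest to each member were found by the root mean square difference of centred log2(FPKM + 1). For Plau these were Frmd4a (0.0752), Fam126a (0.0934) and Racgap1 (0.110), the last a gene of cytokinesis. For Plaur they were Pak1 (0.0451), a kinase of the cytoskeleton, Rab21 (0.0795) and RGD1563365 (0.0815). Plat was followed most closely by Map3k10 (0.0565), Tmco3 (0.0575) and Ap1m1 (0.0579).

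The serpins had other neighbours. Serpine2 was nearest to Tfap2a (0.105), a transcription factor of ectoderm and epithelia, Hmga2 (0.132), a chromatin protein of embryonic and tumor cells, and Pkp1 (0.181), a desmosomal plakophilin. Serpinb2 was nearest to Hmga1 (0.328), a relative of Hmga2, Wnt7b (0.338), a Wnt ligand, and Ptprz1 (0.372), a receptor phosphatase. Serpine2 itself ranked 8 among the rows closest to Serpinb2, at 0.430, while Plat ranked 6769. For scale, the median row differed by 2.26 from Serpinb2, 1.86 from Serpine2, 1.23 from Plau, 0.58 from Plaur and 0.50 from Plat. The distances from Serpinb2 rest in part on its listed 0 in A6.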

How the data were processed

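Messenger RNA of 6 rat tumors, 3 with digitoxin and 3 with vehicle, was sequenced, and the authors deposited FPKM per gene, 1 column per tumor. The 6 columns were matched to samples by name. The submitters' processing notes list CASAVA, FastQC, Bowtie2, TopHat2, Cufflinks, Cuffdiff and hg19, a human build, whereas the numbered chromosomes of the table run to 20, so loci are printed as deposited. The reads were not analysed here, Cuffdiff was not repeated, and depth is unknown, so no counting error can be given.

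The 10749 of 17557 rows whose mean reached 1 FPKM were fitted on log2(FPKM + 1) with limma 3.58.1 (R 4.3.3, trended eBayes, two-sided, Benjamini-Hochberg). The fit was tested on simulated data. Single values were compared by exact permutation (scipy 1.17.1). Of a symbol on several rows, the row with the highest mean was used. Replicates are separate rats.

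The members and all lists were chosen with earlier results of these data known. The genes named are the members, the tested genes of the plasminogen system and metalloproteinase lists with an unadjusted p under 0.05 or no overlap of the groups, Plg, Anxa2, S100a10 and Lrp1 whatever their values, the 3 rows closest in pattern to each member, and defining markers; others are named as chosen after their values were seen. A few genes of these lists are not reported here. Same-numbered tumors deviated together from their group means (r = 0.426, 0.606 and 0.869). Deviations from a mean of 3 tumors are not independent, and other pairings were not computed, so these r cannot show that the numbers mark real pairs. The pairing follows the replicate numbers alone, since the labels give no shared day or batch. Alternatives were median-of-ratios scaling, a pseudocount of 0.1, all rows in place of the filtered ones, untrended eBayes, a replicate block, the lung level as a covariate, each tumor left out, the fits without A12 and B14, which hold little lung RNA, and without A1 and B9, which earlier results of these data had singled out, and, for single genes, the ratio of group means. Sign flips within pairs were added for the ratios after seeing the data.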

Additional observations from a re-analysis of the deposited data

How the results depend on the processing

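No alternative gave a member an adjusted limma p under 0.05, and the lowest was 0.252. Of 75 alternative values of the members' fold changes, 74 kept their direction. This count includes the fits with no filter, untrended eBayes and a replicate block, which cannot move a fold change. It also includes small values, such as -0.0127 for Serpine2 without A6. Plaur turned from -0.34 to 0.0358 without A6 (range -0.70 to 0.0358 with each tumor left out). Lrp1 ran from -0.25 to 0.14 with each tumor left out, and was 0.13 under median-of-ratios scaling and 0.27 without A12 and B14. That scaling moved the median of all rows from -0.16 to 0.0161, a shift of 0.18, and the members relative to it kept their order. The difference in log2 Plau to Serpine2 ran from -0.0713 (without A6) to 1.002 (without A12) with each tumor left out. Paired sign flips gave exact permutation p of 0.25 for Plau to Plat and 0.5 for the other ratios.

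Members with an unadjusted p under 0.05 numbered 0 with all 6 tumors, 1 with a replicate block (Serpinb2, unadjusted p = 0.0370, adjusted p = 0.638), 1 without A12 and B14 (Plau) and between 0 and 3 with each tumor left out. Over all rows, 36 had such a p, against 133 with no filter, 446 with the replicate block, 374 with the lung level as a covariate, 1183 without A12 and B14, 11 without A1 and B9, and between 13 (without A6 or B9) and 2114 (without A12) with each tumor left out. With each tumor left out, the median of the plasminogen system ran from -0.34 (without A1) to -0.0543 (without A6), and that of the metalloproteinases and TIMPs from -0.79 (without B9) to 0.0091 (without B14), and without A1 and B9 they were -0.36 and -1.04. The cause was not tested. With 3 tumors a group, exact tests cannot go below 0.1. Differences within the intervals given for the members were not excluded by the limma fit, and the smallest detectable difference was not computed.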

Other observations

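Other serpins of the table, 33 symbols, included 12 with a mean of at least 1 FPKM, of which 3 were higher and 9 lower with digitoxin, with a median log2 fold change of -0.15 and no unadjusted limma p under 0.05. In 6 of the 12, A12 and B14 were the highest tumors, against 30.1% of all rows, of which 3776 were higher and 6973 lower with digitoxin. The genes that follow were named after their values were seen. Serpinb5, maspin, a serpin of epithelia on the same chromosome as Serpinb2 (chr13:32053527-32073726), was at 9.48, 0.156 and 59.5 FPKM in A1, A6 and A12 and at 21.5, 9.73 and 53.9 in B5, B9 and B14. Serpinb8 (chr13:33035660-33058982) was likewise highest in A12 and B14 and lowest in A6, at 13.99, 2.95 and 37.2 FPKM with digitoxin and 19.9, 24.1 and 39.9 with vehicle.

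Serpinb10, which starts close after the end of Serpinb2 (chr13:32615875-32633626), had the reverse pattern. It was at 26.7 FPKM in A1, 32.4 in A6, 30.5 in B5 and 32.1 in B9, against 0.0910 in A12 and 0.186 in B14. Serpinb2 and its neighbour thus had their highest levels in different tumors of both groups.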
